A study of Mus musculus with 8 samples.

Results

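Gene expression of 38 target genes of the transcription factor p53 was examined by RNA-seq in 8 libraries of cultured mouse hepatocellular carcinoma cells. The genes were taken by symbol from a list of known p53 targets and not by a cut on their level here, but earlier results of these data were known. All 38 were found among the 54838 genes of the deposited tables, and all passed the filter on low counts. The tested cells were 7 subclones of 3H3PM, numbered 1, 2, 3, 6, 7, 8 and 9 in the labels, with 1 library each. They were set against 3H3P, with 1 library. Per the labels, both carry an Hras mutation and descend from 3H3, a line from a liver tumour of a C57BL/6 mouse that lacked MC4R and ate a high-fat diet. In both, Trp53, the mouse p53 gene, had been disrupted with CRISPR/Cas9, with a frameshift and no p53 protein by western blot. For 3H3PM, MYC had been expressed ectopically in 3H3P, and the subclones were recovered from tumours grown in nude mice and then cultured. MYC, growth in a mouse and subcloning therefore cannot be told apart in this comparison, and every value below comes from cells labelled as lacking p53.

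p53 is a transcription factor that is stabilised after DNA damage and other stress and binds paired half-sites in DNA near its target genes. Its targets halt the cell cycle, trigger cell death, repair DNA, adjust metabolism and feed back on p53 itself, and its gene is among the most often mutated in human liver cancer. Many of these genes keep a basal level without p53, because other transcription factors also act on them.

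The promoters show which of these genes carry a p53 half-site close to their start. RefSeq promoter sequences (GRCm38.p6, 250 bases before to 50 bases after each start) were matched for 29 of the 38 genes. Pmaip1, Trp53inp1, Ptp4a3, Zmat3, Xpc, Perp, Pvt1, Rrm2b and Ddb2 had no match. An exact p53 half-site consensus, which reads the same on both strands, was present in 10 of the 29 genes (34.5%), against 9.55% of the 27025 genes with a promoter sequence. The 10 were Abhd4, Aen, Bax, Ccng1, Ei24, Gadd45a, Polk, Ppm1d, Rap2b and Sesn1. A gene was counted when any of its promoters matched, so genes with several promoters, such as Ak1, Cd82 and Abhd4, had more chances. Taken singly, 8.36% of all 32851 promoters carried an exact half-site. A pair of half-sites up to 13 bases apart with at most 1 mismatch, a criterion added after the first count was seen, was present in Ccng1, Bax and Polk, 3 of 29 (10.3%) against 1.24% of all genes. Such matches are descriptions of sequence and do not show binding.
The stretches upstream of Ccng1 and Bax are shown because these genes carry the closest pairs and were both lower in 3H3PM. Each runs 5′ to 3′ on the minus strand and stops before the first annotated exon, and capitals mark both half-sites of the best pair. The Ccng1 stretch is chr11:40755312-40755536 with its pair at chr11:40755462-40755481, and the Bax stretch is chr7:45466899-45467148 with its pair at chr7:45467090-45467110.
Ccng1: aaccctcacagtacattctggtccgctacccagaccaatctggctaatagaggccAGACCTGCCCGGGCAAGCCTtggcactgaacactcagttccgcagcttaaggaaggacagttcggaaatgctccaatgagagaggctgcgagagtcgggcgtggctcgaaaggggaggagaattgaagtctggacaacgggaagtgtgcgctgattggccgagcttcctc
Bax: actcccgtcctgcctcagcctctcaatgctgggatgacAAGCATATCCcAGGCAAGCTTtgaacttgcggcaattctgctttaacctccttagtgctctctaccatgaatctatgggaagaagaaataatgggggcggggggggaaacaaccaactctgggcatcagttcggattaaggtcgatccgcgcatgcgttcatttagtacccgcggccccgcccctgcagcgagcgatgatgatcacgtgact
For comparison, the best pairs of 4 further genes are given alone. Aen (plus strand, chr7:78895937-78895963, inside an annotated exon) was lower in 3H3PM, whereas Polk (minus strand, chr13:96519398-96519418), Sesn1 (plus strand, chr10:41887253-41887275) and Zfp365 (minus strand, chr10:67912706-67912725) did not pass the test. Polk and Sesn1 each had 2 promoters in the table, of which the one with the closer pair is shown, and the pairs of Aen, Sesn1 and Zfp365 each have 2 mismatches.
Aen: GGGCTTGTCCgggcaagGAGCTTCCGC
Polk: GAACTAGCCTcAAACTTATTC
Sesn1: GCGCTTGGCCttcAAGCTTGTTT
Zfp365: AGACTAGGCTGGGCAAGACT

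Libraries held 12838521 to 17987068 expected counts in 3H3PM and 16855985 in 3H3P. Trp53 itself was at 46.7 to 66.6 CPM (counts scaled to a common library size with TMM factors, median 52.9) in 3H3PM and 212 CPM in 3H3P, and since a frameshift need not remove a transcript these counts do not check the knockout. Hepatic epithelial markers moved with the comparison. Summed over 10 hepatocyte and liver tumour markers, 3H3PM had 52.2 to 154 CPM and 3H3P 1292 CPM, with Krt8, Krt18 and Hnf4a lower. Alb was at 0 to 2.08 CPM in 3H3PM and 3.67 CPM in 3H3P, and Afp at 0.319 to 5.95 CPM in 3H3PM and 0.311 CPM in 3H3P, above it in 7 of 7 subclones without passing the test, and 5 of the 10 were under 1 CPM throughout. Epcam was at 0 counts throughout, so the labelled cell type rests here on keratins and Hnf4a in 3H3P and on low keratins in 3H3PM. Fibroblast and stellate markers summed to 104 to 502 CPM in 3H3PM and 119 CPM in 3H3P, carried by Pdgfrb and Pdgfra in 3H3PM and Dcn in 3H3P, with Lum and Thy1 at 0 counts throughout. Macrophage markers summed to 34.2 to 133 CPM in 3H3PM and 365 CPM in 3H3P, mostly Cd14, while the leukocyte marker Ptprc stayed at 0 to 0.0764 CPM in 3H3PM and 0 in 3H3P. Endothelial markers summed to 1.66 to 4.91 CPM in 3H3PM and 4.23 CPM in 3H3P, and lymphocyte markers to at most 0.0662 CPM in 3H3PM and 0 in 3H3P. The part of the marker differences in the results below was not tested, and in such bulk libraries fewer cells of a type and less RNA per cell cannot be told apart.

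The comparison of 3H3PM with 3H3P asks how the subclones differ from the line they came from. Those p53 target genes that passed the test were all lower in 3H3PM. By edgeR's quasi-likelihood test, with p adjusted by the Benjamini-Hochberg method over 14634 genes and called under 0.05, 12 of the 38 were lower (31.6%), where 11.8% of all tested genes were, and 0 were higher, where 7.33% of all were (19.1% in either direction). At an unadjusted p under 0.05 there were 20 of 38, where 34.1% of all tested genes were. Eda2r reached the filter on low counts in 3H3P alone, so it had to be lower. Among genes that reached it in at least 1 subclone, 11 of 37 were lower (29.7%), where 9.39% of all such genes were. The other way, Plk3 reached the filter in 3H3PM alone, as did 1613 of all 14634 tested genes. Such genes favour higher values in 3H3PM by the filter itself. The shares of higher genes given here include them and were not recounted without them. The 12 were Ccng1, Eda2r, Phlda3, Aen, Zmat3, Bax, Rrm2b, Pvt1, Trp53inp1, Abhd4, Fas and Ephx1. The log2 fold change (3H3PM over 3H3P) was negative for 30 genes and positive for 8, with a median of −0.70, beside 0.03 over all tested genes. A log2 fold change of −1 or lower was found for 17 of 38 (44.7%), beside 16.5% of all, and of 1 or higher for 1, beside 14.2% of all. All 7 subclones lay below 3H3P for 23 genes (60.5%, beside 30.4% of all tested genes) and above it for 4 (10.5%, beside 27.1%), and 3H3P lay within the subclones' range for 11 (over all tested genes 3H3P lay outside for 57.4%). These counts of fold changes and positions keep Eda2r on the lower side and Plk3 on the higher side. The spread came from the subclones alone, so 3H3P was assumed to vary as they do, and p-values measure the spread between isolates. On log2(TPM + 1) limma called 6 genes, all lower, where 11% of all tested genes were lower and 8.23% higher (19.3% in either direction). On log2(TPM + 0.1) it called 6, of which 5 were lower and 1 was higher, where 9.08% of all were lower and 9.2% higher (18.3% in either direction).

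**Figure D1:**
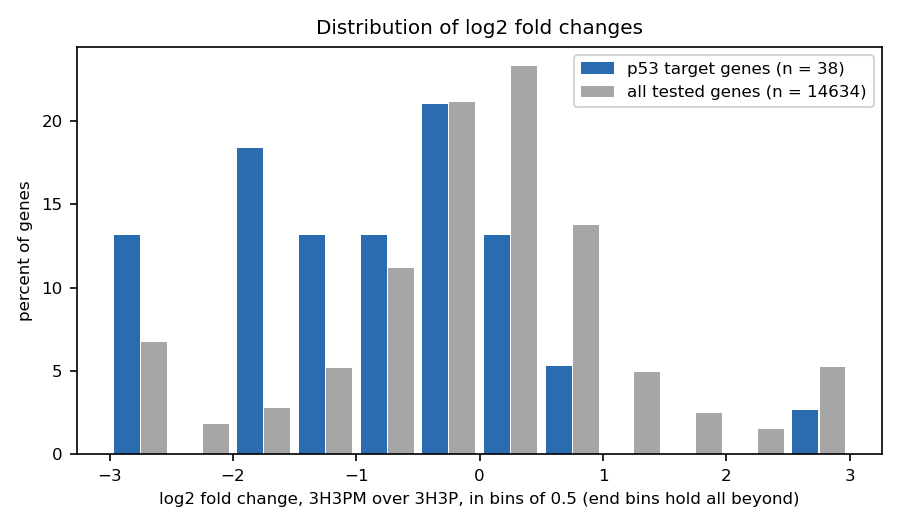
Percent of genes in each bin of log2 fold change (3H3PM over 3H3P, bins of 0.5, end bins holding all values beyond), for the 38 p53 target genes and all 14634 tested genes. Of the 38, 30 lie below 0 and the single gene above 1 is Plk3, which reached the filter on low counts in 3H3PM alone.

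**Figure D2:**
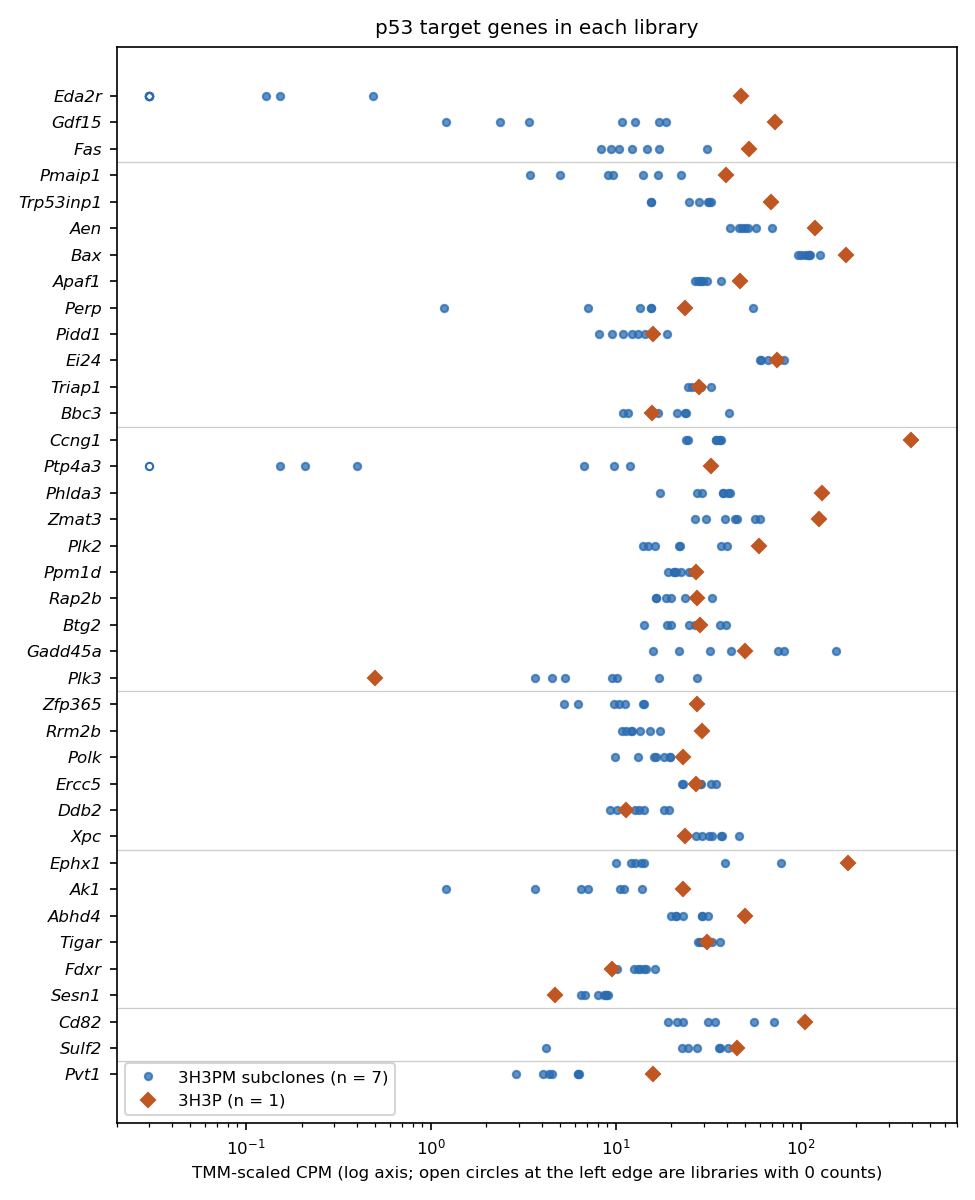
TMM-scaled CPM (log axis) of each p53 target gene in the 7 3H3PM subclones (circles, open where a library had 0 counts) and in 3H3P (diamond), with lines between functional groups. Eda2r and Ccng1 show the clearest separation with 3H3P on the right, and Plk3 the clearest with 3H3P on the left.

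Genes that act on the cell cycle, on p53 itself or on growth signalling numbered 10, of which 3 were lower, 7 did not pass and 0 were higher. Here and in each functional group below, the shares to set beside such counts are 11.8% lower and 7.33% higher among all tested genes. Ccng1 (chromosome 11, 40748552 to 40755311) encodes cyclin G1, which takes part in feedback on p53 with Mdm2. It was at 24.0, 34.7 and 37.2 CPM in 3H3PM (lowest, median and highest subclone) and 395 CPM in 3H3P, so that the whole range of the subclones lay far below. Its log2 fold change was −3.60 (3H3PM over 3H3P, SE 0.21, edgeR adjusted p = 6.57e-05), a level of 8.26% of that in 3H3P. Phlda3 (chromosome 1, 135766119 to 135769136), which restrains AKT at the membrane, had 17.4, 37.9 and 41.6 CPM in 3H3PM and 131 CPM in 3H3P. Its groups did not overlap either, with a log2 fold change of −1.98 (SE 0.34, edgeR adjusted p = 0.00484). Zmat3 (chromosome 3, 32334792 to 32366014), encoding a zinc finger protein that binds RNA, had 26.8, 43.9 and 60.0 CPM in 3H3PM and 126 CPM in 3H3P. The log2 fold change of Zmat3 was −1.54 (SE 0.34, edgeR adjusted p = 0.0149), and its call was lost on log2(TPM + 1) and log2(TPM + 0.1), with limma adjusted p of 0.0505 and 0.0583.

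Among the 7 genes of this group that did not pass, Plk2 and Plk3, which encode related polo-like kinases, stood on opposite sides of 3H3P. Plk2 had 14, 21.98 and 39.94 CPM in 3H3PM and 59.4 CPM in 3H3P (log2 fold change −1.32, SE 0.50, edgeR adjusted p = 0.0930). Plk3 had 3.67, 9.50 and 27.3 CPM in 3H3PM and 0.498 CPM in 3H3P, and all 7 subclones were above. Plk3 reached the filter on low counts in 3H3PM alone, so its p-values are no test of a difference. Because 3H3P had only 8 counts of Plk3, its ratio of 21.9 (3H3PM over 3H3P) has a 95% exact counting interval of 11.1 to 50.9. By edgeR Plk3 had an adjusted p of 0.0549, by DESeq2 0.000347, and over the alternatives 0.000347 to 0.214. Ptp4a3, a tyrosine phosphatase gene, had 0, 0.397 and 11.96 CPM in 3H3PM and 32.8 CPM in 3H3P (edgeR adjusted p = 0.250), below in 7 of 7 subclones but with the subclones far apart. Ppm1d, whose phosphatase WIP1 switches off p53 signalling, lay at 19.2, 21.05 and 25.7 CPM in 3H3PM, close below its 27.3 CPM in 3H3P (log2 fold change −0.31, edgeR adjusted p = 0.351). Gadd45a, a growth arrest gene, Btg2, an antiproliferative gene, and Rap2b, a small GTPase gene, overlapped 3H3P, with log2 fold changes of 0.27, −0.14 and −0.30. The sign for Gadd45a turned without subclone 8 (−0.14) and by limma-voom (−0.12).

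**Figure D3:**
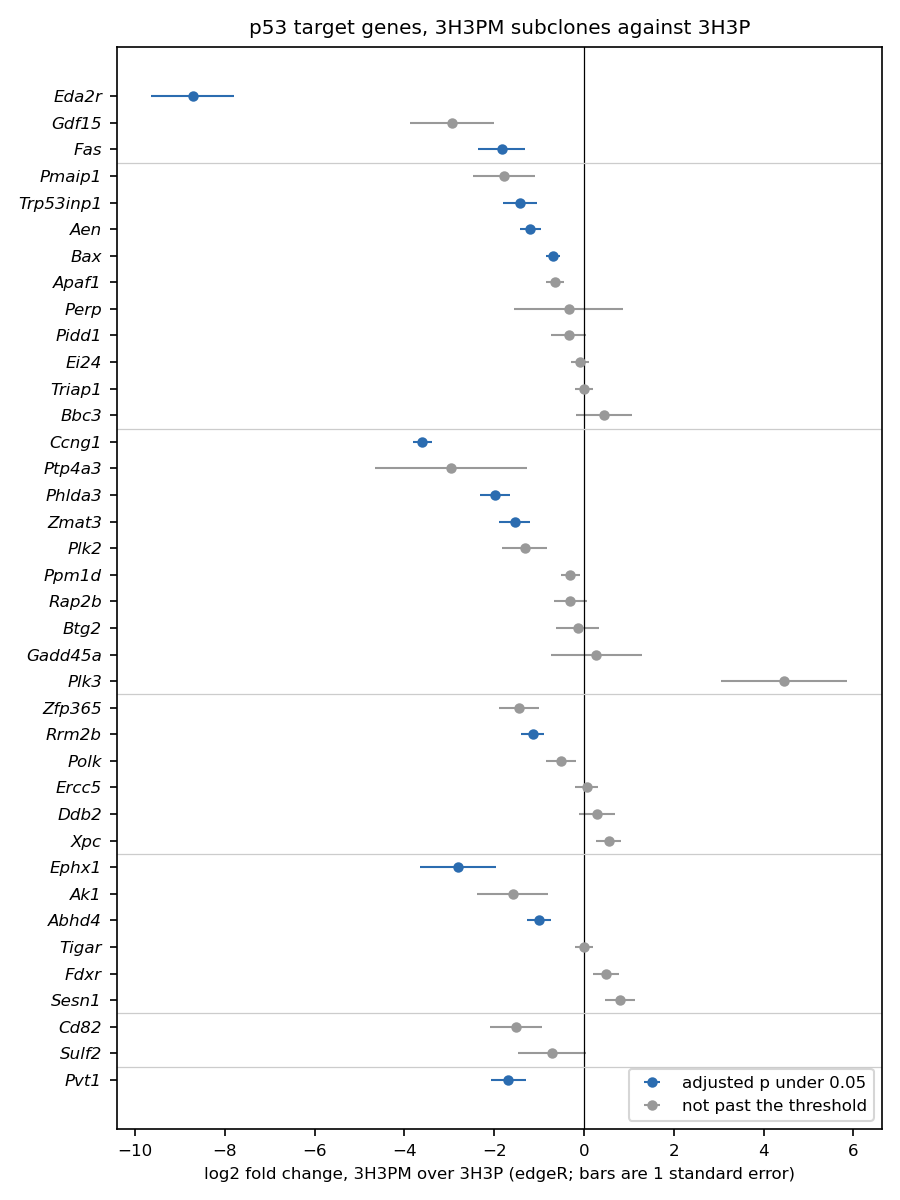
Log2 fold change (3H3PM over 3H3P) of each p53 target gene by edgeR, with bars of 1 standard error, coloured where the adjusted p was under 0.05. All 12 coloured points lie left of 0, from −8.72 for Eda2r to −0.70 for Bax. Eda2r reached the filter on low counts in 3H3P alone, so its place left of 0 was fixed.

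The receptor genes Eda2r and Fas both lay below 3H3P in 7 of 7 subclones. Eda2r (chromosome X, 97333840 to 97377216) encodes the receptor for ectodysplasin A2, a member of the TNF receptor family. It had 0 counts in 4 of 7 subclones and at most 0.485 CPM, in subclone 9, against 47.5 CPM in 3H3P. Only 11 counts were found over all subclones and 764 in 3H3P, a ratio of 462 (3H3P over 3H3PM, 95% exact counting interval 257 to 929). Since it passed the filter only through 3H3P, its call is no test of a difference. Fas (chromosome 19, 34290666 to 34327772), the receptor for Fas ligand, had 8.31, 12.3 and 31.3 CPM in 3H3PM and 52.8 CPM in 3H3P. Its log2 fold change was −1.83 (SE 0.53, edgeR adjusted p = 0.0400). The call was lost without subclone 1, 2, 3, 6, 8 or 9 (up to 0.0647) and on both TPM scales (0.0834 and 0.0896), and kept without subclone 7, its highest (0.00549). Gdf15, a secreted stress cytokine of the TGF-beta superfamily, had 1.21, 10.8 and 18.6 CPM in 3H3PM and 72.4 CPM in 3H3P. It was below 3H3P in 7 of 7 subclones without passing the test (log2 fold change −2.94, SE 0.93, edgeR adjusted p = 0.0559), and over the alternatives its adjusted p ran from 0.0175 to 0.138.

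Of 10 cell death effectors 3 were lower, 7 did not pass and 0 were higher. Bax (chromosome 7, 45461697 to 45466898), the pore-forming BCL2 family member, was on average the most abundant of all 38 genes per length. It had 238 ± 24.3 TPM in 3H3PM (mean, SD, n = 7) and 358 TPM in 3H3P. In subclone 8 Gadd45a was higher, at 244 TPM against 215 TPM for Bax. In CPM Bax had 96.5, 110 and 127 in 3H3PM and 176 in 3H3P, a small difference with little spread (log2 fold change −0.70, SE 0.16, edgeR adjusted p = 0.0169). Aen (chromosome 7, 78895854 to 78911209), a nuclease of apoptotic cells, had 41.5, 49.7 and 70.3 CPM in 3H3PM and 119 CPM in 3H3P, with no overlap (log2 fold change −1.19, SE 0.23, edgeR adjusted p = 0.00849). Trp53inp1 (chromosome 4, 11156431 to 11174379), a nuclear protein gene that promotes p53-dependent death and autophagy, had 15.4, 28.2 and 32.8 CPM in 3H3PM and 69.2 CPM in 3H3P. Its log2 fold change was −1.43 (SE 0.38, edgeR adjusted p = 0.0295), and its call was lost without subclone 3 (0.0549) and on both TPM scales, with limma adjusted p of 0.0818 and 0.0947.

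The remaining 7 effectors did not move together. Pmaip1, encoding the BH3-only protein NOXA, had 3.43, 9.63 and 22.6 CPM in 3H3PM and 39.6 CPM in 3H3P (log2 fold change −1.78, SE 0.70, edgeR adjusted p = 0.105). Apaf1, the scaffold of the apoptosome, had 26.7, 29.0 and 37.3 CPM in 3H3PM and 46.7 CPM in 3H3P (log2 fold change −0.64, SE 0.20, edgeR adjusted p = 0.0513), and 5 of 15 alternatives called it lower. For both genes all 7 subclones lay below 3H3P. Bbc3, which encodes the other p53-responsive BH3-only protein, PUMA, lay at 10.9, 21.5 and 41.0 CPM in 3H3PM around its 15.6 CPM in 3H3P (edgeR adjusted p = 0.649). Perp, a desmosomal membrane protein gene, lay at 1.19, 15.5 and 54.9 CPM in 3H3PM around 23.8 CPM in 3H3P (edgeR adjusted p = 0.869). Pidd1, Ei24 and Triap1, which encode a death-domain adaptor, an ER membrane protein and an apoptosis inhibitor, had log2 fold changes of −0.34, −0.08 and −0.01. For Triap1 the sign depended on the scaling and was positive with library size alone (0.07).

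Of 6 genes of DNA repair and nucleotide supply 1 was lower (16.7%, near the 11.8% of all tested genes), 5 did not pass and 0 were higher. Rrm2b (chromosome 15, 37923952 to 37961318), encoding the p53-inducible ribonucleotide reductase subunit, had 10.9, 12.3 and 17.3 CPM in 3H3PM and 29.3 CPM in 3H3P (log2 fold change −1.14, SE 0.26, edgeR adjusted p = 0.0171). The groups did not overlap, but limma did not call it on log2(TPM + 1) or log2(TPM + 0.1), with adjusted p of 0.0555 and 0.0671. Zfp365, a zinc finger gene tied to genome stability, had 5.27, 10.5 and 14.2 CPM in 3H3PM and 27.6 CPM in 3H3P (log2 fold change −1.44, SE 0.44, edgeR adjusted p = 0.0512), and 6 of 15 alternatives called it lower. The translesion polymerase gene Polk lay at 9.85, 16.6 and 19.7 CPM in 3H3PM, with each subclone below the 23.1 CPM of 3H3P (log2 fold change −0.51, edgeR adjusted p = 0.321). The nucleotide excision repair genes had positive log2 fold changes, but none passed the test. Xpc, which recognises the lesion, had 27.3, 33.0 and 46.1 CPM in 3H3PM and 23.6 CPM in 3H3P, so that each subclone was above (log2 fold change 0.55, SE 0.28, edgeR adjusted p = 0.206). Its partner Ddb2 and the nuclease gene Ercc5 overlapped 3H3P. Their log2 fold changes were 0.29 (SE 0.41, edgeR adjusted p = 0.658) and 0.06 (SE 0.26, edgeR adjusted p = 0.892), each smaller than its SE.

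Of 6 genes of metabolism and redox 2 were lower, 4 did not pass and 0 were higher. Ephx1 (chromosome 1, 180976210 to 181020904), the microsomal epoxide hydrolase of xenobiotic metabolism, had 10.0, 13.6 and 78.3 CPM in 3H3PM and 180 CPM in 3H3P. The log2 fold change of Ephx1 was −2.80 (SE 0.84, edgeR adjusted p = 0.0460), and it was below 3H3P in 7 of 7 subclones, although subclones 6 and 8 were well above the other 5. The call was lost without subclone 1, 2, 3, 6, 7 or 9 (up to 0.0784), by DESeq2 (0.0750) and on both TPM scales (0.0628 and 0.0685), and kept without subclone 8 (0.00401). Abhd4 (chromosome 14, 54254188 to 54270637), a lipase of N-acyl phospholipids, had 19.9, 23.2 and 31.7 CPM in 3H3PM and 50.1 CPM in 3H3P, with no overlap. The log2 fold change was −0.999 (SE 0.26, edgeR adjusted p = 0.0298), with limma adjusted p of 0.0522 and 0.0538 on the TPM scales. Ak1, the cytosolic adenylate kinase gene, was also below 3H3P in 7 of 7 subclones, at 1.21, 7.08 and 13.8 CPM in 3H3PM and 23.2 CPM in 3H3P (edgeR adjusted p = 0.196). Sesn1, a sestrin that restrains mTORC1, and Fdxr, ferredoxin reductase of mitochondria, lay above 3H3P in 7 of 7 subclones. Sesn1 had 6.52, 8.63 and 9.08 CPM in 3H3PM and 4.67 CPM in 3H3P (log2 fold change 0.80, SE 0.33, edgeR adjusted p = 0.121). Fdxr had 10.1, 13.4 and 16.2 CPM in 3H3PM and 9.58 CPM in 3H3P (log2 fold change 0.49, SE 0.29, edgeR adjusted p = 0.269). Tigar, a fructose bisphosphatase gene that slows glycolysis, had a log2 fold change of −0.00 with SE 0.20, so these data leave room for a modest change in either direction, and its sign turned with library size alone (0.07).

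Neither cell surface gene passed, although all 7 subclones lay below 3H3P for both. The tetraspanin gene Cd82, a metastasis suppressor, had 19.1, 31.6 and 71.6 CPM in 3H3PM and 105 CPM in 3H3P (log2 fold change −1.51, SE 0.57, edgeR adjusted p = 0.0953). The heparan sulfatase gene Sulf2 had 4.20, 27.7 and 40.7 CPM in 3H3PM and 45.2 CPM in 3H3P (edgeR adjusted p = 0.540), and subclone 1 was its lowest. The long noncoding RNA gene Pvt1 (chromosome 15, 62037986 to 62378096), a neighbour of Myc, had 2.90, 4.52 and 6.36 CPM in 3H3PM and 15.9 CPM in 3H3P, without overlap. The log2 fold change of Pvt1 was −1.69 (SE 0.39, edgeR adjusted p = 0.0172), and limma on log2(TPM + 0.1) did not call it (0.0550). Mouse Myc itself (chromosome 15, 61985391 to 61990374) had 3.57, 4.11 and 11.6 CPM in 3H3PM and 85.2 CPM in 3H3P (log2 fold change −3.71, SE 0.53, edgeR adjusted p = 0.00206). Which species the added MYC came from is not stated in the labels, so these counts need not include it.

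Per length, the order of the genes differed between the groups. In 3H3PM the highest by mean were Bax, Gadd45a (98.9 ± 76.4 TPM, SD, n = 7), Ei24 (53.2 ± 6.68 TPM) and Triap1 (47.5 ± 4.18 TPM), of which the last 3 are separated by less than the spread of Gadd45a. In 3H3P the highest were Bax, Ccng1 (165 TPM), Ephx1 (163 TPM) and Phlda3 (149 TPM). In 3H3PM these last 3 averaged 14.4 ± 2.35, 24.3 ± 23.5 and 39.8 ± 10.9 TPM.

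The subclones also differed among themselves, and several p53 targets spread widely. The SD of log2 CPM over the 7 subclones was above 1 for 8 of 38 genes (21.1%), where it was for 6.70% of the 12151 tested genes with a mean of at least 1 CPM in the subclones. Without subclone 8 it was above 1 for 4 genes, beside 5.51% of all. The median SD was 0.42 over the 38 and 0.28 over all. The 8 were Ptp4a3, Perp, Gdf15, Ak1, Gadd45a, Sulf2, Ephx1 and Plk3. The least variable were Bax, Triap1 and Tigar, with an SD of 0.13 each, and Ccng1, the clearest difference from 3H3P, had an SD of only 0.28.

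Ptp4a3 was the most variable, with an SD of 2.77. It had 11.96, 6.71 and 9.83 CPM in subclones 1, 2 and 3 and 0.397, 0.153, 0 and 0.208 CPM in subclones 6, 7, 8 and 9. The 2 sets of subclones did not overlap, and the 0 counts of subclone 8 allow up to 3 counts. Perp, with an SD of 1.67, had 23.4, 54.9, 15.5, 7.09, 15.5, 1.19 and 13.6 CPM in subclones 1, 2, 3, 6, 7, 8 and 9, so that it was highest in subclone 2 and lowest in subclone 8. Gdf15, with an SD of 1.51, had 18.6, 1.21, 10.8, 12.7, 2.37, 17.0 and 3.39 CPM in the same order, with subclones 2, 7 and 9 low. Gadd45a had 75.4, 15.9, 42.1, 81.0, 22.1, 154 and 32.3 CPM, and it was low in the same 3 subclones. Ak1 had 3.67, 1.21, 7.08, 11.1, 13.8, 10.6 and 6.51 CPM, lowest in subclone 2.

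Some subclone patterns recurred across genes, noted after the values were seen and given without a test. Subclones 6 and 8 were the 2 highest for 10 of 37 genes (27.0%), those with a subclone mean of at least 1 CPM, beside 16.3% of all such genes. These 10 were Abhd4, Cd82, Ephx1, Gadd45a, Plk3, Pmaip1, Rrm2b, Sulf2, Tigar and Zmat3. Plk3, for example, had 17.2 and 27.3 CPM in subclones 6 and 8 and 3.67 to 10.1 CPM in the others. Subclones 1 and 2 were the 2 lowest for 12 of 37 (32.4%), beside 11.9% of all, Ccng1, Aen, Zmat3, Pvt1, Rrm2b and Abhd4 among them. Subclones 1 to 3 all lay below subclones 6 to 9 for 7 of 37 genes (18.9%, beside 10.2% of all), namely Aen, Phlda3, Pmaip1, Pvt1, Rap2b, Zfp365 and Zmat3. They lay above for 2 (5.41%, beside 10.2% of all), Ddb2 and Ptp4a3. Cdkn1a, the p21 gene, was likewise highest in subclones 6 and 8, at 26.6 and 44.5 CPM. Of the fibroblast and stellate markers Pdgfra was highest there, at 175 and 349 CPM in subclones 6 and 8 and 2.13 to 11.6 CPM in the others. Other genes of that list did not share the pattern, with Pdgfrb at 97.9 CPM in subclone 6, Col1a1 at 1.11 CPM in subclone 8, and Acta2 and Col3a1 highest in subclone 7. Of the macrophage markers Cd14 was at 64.7 and 102 CPM in subclones 6 and 8 and 23.8 to 43.2 CPM in the others. Cd68 shared the pattern, at 5.43 and 7.49 CPM in subclones 6 and 8 and 1.38 to 2.31 CPM in the others. Csf1r was highest in subclone 8, at 23.5 CPM, but second in subclone 9. Lyz2 did not share the pattern, at 0.927 and 0.0741 CPM in subclones 6 and 8 and highest in subclone 2, at 4.41 CPM. Ptprc, Adgre1, Itgam and Fcgr1 were at 0 in subclones 6 and 8. Any part of these differences in the values of the p53 targets was not tested.

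**Figure D4:**
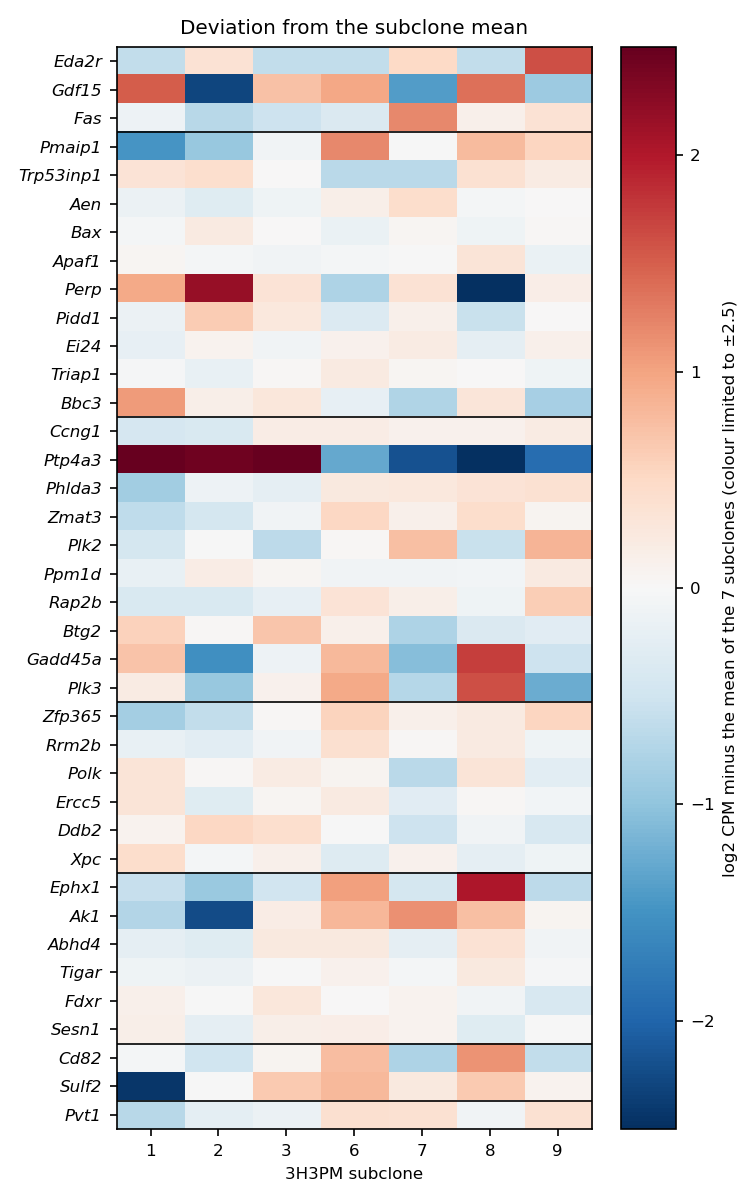
Log2 CPM of each p53 target gene in each 3H3PM subclone minus the mean of the 7 subclones (colour, limited to ±2.5), with lines between functional groups. Ptp4a3 is high in subclones 1 to 3 and low in subclones 6 to 9, and Gadd45a, Plk3, Ephx1 and Cd82 are highest in subclones 6 and 8.

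The abundance-weighted transcript length that accompanies each expected count is a further readout, since it moves when the isoforms of a gene change in proportion. It was examined for the 31 genes with at least 50 counts in every library. The subclone median differed from 3H3P by 10% or more, with 3H3P outside the subclones' range, for 3 of them (9.68%), close to the 7.77% of all 9591 such genes. Bbc3, whose log2 fold change in level was 0.45 (SE 0.63), had 1239 to 1386 bases in 3H3PM (median 1293) and 1558 bases in 3H3P. Pidd1 had 2298 to 2940 bases in 3H3PM and 3162 in 3H3P, and Apaf1 4175 to 6398 in 3H3PM and 4078 in 3H3P. For Bax, Fas and Ccng1 the median differed by under 2%.

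Other p53 pathway genes were taken from lists that share no gene with the 38. Over all tested genes 11.8% were lower and 7.33% higher. Of 7 p53 regulators 6 were tested, and 3 were lower and 1 higher, but Cdkn2a reached the filter in 3H3P alone and Trp63 in 3H3PM alone. Trp53 and Mdm2, the ubiquitin ligase gene of p53, were lower, with log2 fold changes of −1.97 (SE 0.18, edgeR adjusted p = 0.000322) and −1.42 (SE 0.18, edgeR adjusted p = 0.00128). Cdkn2a, encoding p16 and ARF, had 2 counts over all subclones and 103 in 3H3P, a ratio of 342 (3H3P over 3H3PM, 95% exact counting interval 92.4 to 2865). Trp63, a p53 relative that recognises similar DNA sites, had 431 counts over the subclones against 3 in 3H3P, a ratio of 21.6 (3H3PM over 3H3P, 95% exact counting interval 7.34 to 105). Its level in 3H3PM stayed low, at 1.73, 4.22 and 7.86 CPM.

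Of 20 further reported p53 targets, Mdm2 included, 18 were tested. Of these 4 were lower (beside 11.8% of all tested genes), 2 higher (beside 7.33%) and 12 did not pass, with a median log2 fold change of −0.28. Besides Mdm2 the lower ones were Slc19a2, a thiamine transporter gene (log2 fold change −0.98, edgeR adjusted p = 0.0207), Sco2, a cytochrome oxidase assembly gene (−1.40, edgeR adjusted p = 0.0453), and Rps27l, a ribosomal protein paralogue (−0.59, edgeR adjusted p = 0.0489). Ccnk, encoding cyclin K, was higher (1.06, edgeR adjusted p = 0.0101), as was Cpt1c, which had 0 counts in 3H3P and at most 1.19 CPM in 3H3PM, at least 3.91-fold higher against 3 counts in 3H3P. Cpt1c had reached the filter in 3H3PM alone. Cdkn1a did not pass, at 1.99, 11.01 and 44.5 CPM in 3H3PM and 114 CPM in 3H3P (log2 fold change −2.87, SE 0.96, edgeR adjusted p = 0.0662). Among 14 cell cycle genes that p53 represses through p21 and the DREAM complex, 4 were higher (beside 7.33% of all tested genes), 0 lower (beside 11.8%) and 10 did not pass. The 4 were Cdc20, Ccna2, Top2a and Plk1, with log2 fold changes of 1.28, 0.99, 0.90 and 0.61 (edgeR adjusted p of 0.0103, 0.0155, 0.0123 and 0.0408). The log2 fold changes of the other 10 ran from −0.04 (Mki67) to 0.72 (Bub1), with Ccnb2, Cdk1 and Mcm5 also near 0.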

How the data were processed

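Reads were handled with STAR, RSEM, FastQC and DESeq2 on GRCm38 (mm10), per the submitters' processing notes, which state neither roles nor order here. Their versions and the annotation are not given in the sources used. Per the file headers, the authors deposited an expected count, a TPM value and a transcript length weighted by isoform abundance for each gene and library. Length is in bases and carries no score. Expected counts divide reads that match several genes, and 6 of the 38 genes had a fractional value in some library. Exons of 11 of the 38 overlap another annotated gene, over 20% of their length for Ddb2 and Rap2b, and use of strand in counting is not stated.

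Expected counts were rounded and tested with edgeR 4.0.16 (R 4.3.3; filterByExpr by group, TMM, estimateDisp, glmQLFit, glmQLFTest) on all 8 libraries, leaving 6 residual degrees of freedom, all from the subclones. Alternatives used DESeq2 1.42.0, limma 3.58.1 (voom, or the deposited TPM on a log2 scale), other scalings and filters, and each subclone left out. Standard errors were taken as the absolute log2 fold change over the root of the F statistic. Depth limits low values: 0 counts in a library allow up to 3, and intervals cover counting error only. Positions come from GENCODE vM21 (GRCm38), matched by identifier for 38 genes, 36 with the same version.

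The genes, lists and tests were chosen with earlier results of these data known. The lowest, median and highest subclone and 3H3P are given for genes called by edgeR and for uncalled genes with a mean of at least 10 CPM over the libraries and 3H3P outside the subclones' range, and every subclone for the 5 genes of largest spread. Other genes, Plk3 included, are named after their values were seen.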

Additional observations from a re-analysis of the deposited data

Results flagged for a closer look

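In 5 of the 38 genes 1 subclone stood apart from the other 6 in CPM, by a gap to its nearest neighbour above 0.568 of the whole range (Dixon's 95% critical value for 7 samples). For normally distributed values chance alone gives such a gap in about 1 of 20 groups, and CPM need not be distributed so. Among genes with a subclone mean of at least 1 CPM, which leaves out Eda2r, the gap was found for 4 of 37 p53 targets (10.8%) and for 6.82% of all 12151 tested genes. Eda2r was at 0.485 CPM in subclone 9, with the next subclone at 0.153 CPM, which are few counts. Fas was at 31.3 CPM in subclone 7, with the next at 17.2 CPM. Perp was at 54.9 CPM in subclone 2, with the next at 23.4 CPM. Apaf1 was at 37.3 CPM in subclone 8, with the next at 31.0 CPM. Ephx1 was at 78.3 CPM in subclone 8, with subclone 6 next at 39.2 CPM. Of these subclone values only that of Perp lay above 3H3P.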

How the results depend on the processing

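No paired analysis was possible because 3H3P has 1 library and the labels give it no replicate number. Of the 12 lower genes, 5 (Aen, Bax, Ccng1, Phlda3 and Eda2r, which passed the filter only through 3H3P) kept their call under every alternative that tested them. The filter of 1 CPM in 7 libraries left Eda2r and Ptp4a3 untested. On all 8 libraries DESeq2 called 14 genes lower and 1 higher, where 23.3% of all tested genes were called in either direction. With library size alone edgeR called 12 lower and 1 higher (19.4% of all), and the higher gene was Plk3 in both. By limma-voom 18 were lower and 0 higher (21.8% of all). The number of called genes was 9 to 15 with 1 subclone left out, where 13.8% to 20.5% of all tested genes were called, and 6 on log2(TPM + 1) and 6 on log2(TPM + 0.1), where the cause was not tested. Of the 26 uncalled genes, 8 were called under some alternative, among them Plk3, which reached the filter in 3H3PM alone. The number with an SD above 1 was 4 to 9 with 1 subclone left out. It was 8 with every subclone kept, where 6.7% of all tested genes with a mean of at least 1 CPM had such an SD. At a minimum of 200 counts, where fewer genes qualified, length differences numbered 1 of 18 (5.56%), beside 6.86% of all 7303 such genes. Pairs of half-sites with up to 3 mismatches were found in 19 of 29 genes (65.5%, beside 48.5% of all genes), against 3 with up to 1 (10.3%, beside 1.24%). Signs turned for genes near 0. Triap1 had log2 fold changes of 0.0695 (library size alone), 0.0253 (no filter), 0.0626 and 0.0638 (both TPM scales) and −0.0488 to 0.0299 with 1 subclone left out. Tigar had 0.0747, 0.0312, 0.0729 and 0.0778 under the same settings and −0.0296 to 0.0291. Gadd45a had −0.12 by limma-voom and −0.14 to 0.44 with 1 subclone left out, the lowest without subclone 8.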
